A study of Mus with 4 samples.

Results

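U6 RNA, the product of Rnu6 (RefSeq transcript NR_003027.2), carried 5 of the 755 pseudouridine (Ψ) sites listed here for cochlear tissue of untreated mutant mice. The total that the study reports for untreated cochleae is larger. These 5 sites were all table entries with the gene name Rnu6, and they covered positions 9 to 10, 23, 31 to 32, 40 and 85 to 86 of the transcript. The labels describe 4 samples of mouse cochlear tissue, and every mouse carried the Otof c.1315 C > T (p.R439X) change, which puts a premature stop codon into the gene for the hair cell protein otoferlin. Of these samples, 2 had received RESTART v3 and were not analysed here. RESTART v3 is a set of a guide snoRNA, a DKC1 isoform and a natural near-cognate arginine tRNA. It converts this stop codon to its Ψ form and reads through it. The other 2 samples were untreated, and the headers of their values give the genotype as OTOF-/-. All values below belong to these untreated replicates 1 and 2. The mutation was made by genome editing in a mouse line, and the labels give neither the age of the mice nor the number of animals behind a sample.

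U6 RNA is the small nuclear RNA at the catalytic centre of the spliceosome, the machine that removes introns from pre-mRNA. It is made by RNA polymerase III, enters the spliceosome base-paired to U4 RNA, and is then freed to pair with U2 RNA and with the 5′ splice site of the intron. Ψ is an isomer of uridine that stabilizes RNA helices, and in small nuclear RNAs it is placed by protein enzymes or by particles with an H/ACA guide RNA. In human U6 RNA, Ψ has long been known at positions 31, 40 and 86, and the stretch that contacts the 5′ splice site starts just after position 40.

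Ψ was measured by PRAISE. The RNA is treated with sulfite and bisulfite, which form an adduct on Ψ that reverse transcriptase passes over, and the position then appears in reads as a deletion. Each replicate consisted of 2 libraries, one with this chemistry and one control without it. The level is the percentage of chemistry reads with a deletion minus the percentage of control reads with one, and differences between levels are given in points. Where a deletion falls in a run of adjacent uridines, the position cannot be resolved, and the run has 1 value. In both replicates, every listed site had a p-value under 0.005 in the authors' contingency table test. Its control ratio was no higher than 5% and its level was over 5 points. The study's methods give such limits for off-target sites. That they also applied to this listing is inferred from the listed values, and they are called the listing rules below. These sites were thus taken as chosen by their level, control ratio and p-value, and the levels are given as a description with no test. The lowest U6 levels, 13.9% in replicate 1 and 10.6% in replicate 2, lay above the limit of 5 points, while the lowest level of the whole table in replicate 1 was 5.05% (Gm23547).

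All 5 positions were called in both replicates when at least 20 reads were required in each library, as were 56.7% of all listed sites, a share that the listing rules largely set. On GRCm39 the sites lay on the minus strand of chromosome 17, at coordinates 13652392 (positions 9 to 10), 13652379 (position 23), 13652370 (positions 31 to 32), 13652362 (position 40) and 13652316 (positions 85 to 86). For runs this is the last position, since all 5 entries then placed position 1 at the same coordinate, 13652401. The annotation gives Rnu6 as an snRNA gene of 107 nt, so the listed positions span most of the molecule from near its 5′ end to near its 3′ end.

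The run at positions 31 to 32 had the highest level. Deletions were found in 797 of 1706 chemistry reads of replicate 1 (46.7%, Wilson 95% interval 44.4% to 49.1%) and in 725 of 1742 of replicate 2 (41.6%, 39.3% to 43.9%). The control had 1 deletion read in each replicate, of 6308 and 5365 reads. The level averaged 44.2% ± 3.61 (SD, n = 2), and fewer than 50% of the chemistry reads over this run had a deletion in either replicate.

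Position 40, next to the stretch that contacts the 5′ splice site in human U6, had deletions in 641 of 1540 chemistry reads of replicate 1 (41.6%, interval 39.2% to 44.1%) and in 489 of 1552 of replicate 2 (31.5%, 29.2% to 33.9%). The control had 3 deletions in 4964 reads and 6 in 4135. The mean level of 36.5% ± 7.21 (SD, n = 2) had the widest spread of the 5 positions.

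The run at positions 85 to 86, near the 3′ end, had deletions in 22 of 53 chemistry reads (41.5%, interval 29.3% to 54.9%) and in 15 of 47 (31.9%, 20.4% to 46.2%). Its mean level, 36.6% ± 6.69 (SD, n = 2), was within 0.18 points of that of position 40. In replicate 1 it was lower than at position 40 by 0.19 points and in replicate 2 higher by 0.55 points, so the order of this pair was not resolved.

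Positions 9 to 10 lie in the 5′ part of the molecule. Deletions made up 451 of 1638 chemistry reads in replicate 1 (27.5%, interval 25.4% to 29.7%) and 319 of 1653 in replicate 2 (19.3%, 17.5% to 21.3%), and the level averaged 23.2% ± 5.83 (SD, n = 2). Position 23 was the lowest of the 5. It had 236 deletions in 1692 chemistry reads of replicate 1 (13.9%, interval 12.4% to 15.7%) and 183 in 1726 of replicate 2 (10.6%, 9.24% to 12.1%), a mean level of 12.3% ± 2.38 (SD, n = 2).

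The order of the mean levels was thus positions 31 to 32, then 85 to 86 and 40 together, then 9 to 10, then 23. Within replicates 1 and 2, positions 31 to 32 were 5.14 and 10.2 points above position 40, and 5.33 and 9.69 points above positions 85 to 86, whose counting intervals overlapped theirs. The replicate values of positions 40 and 9 to 10, and of positions 9 to 10 and 23, did not overlap. Within each replicate, positions 40 and 9 to 10 were 14.3 and 12.3 points apart, and positions 9 to 10 and 23 were 13.3 and 8.45 points apart. A read can cover several positions, so the positions are not independent measurements, and no test was made between them.

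**Figure D1:**
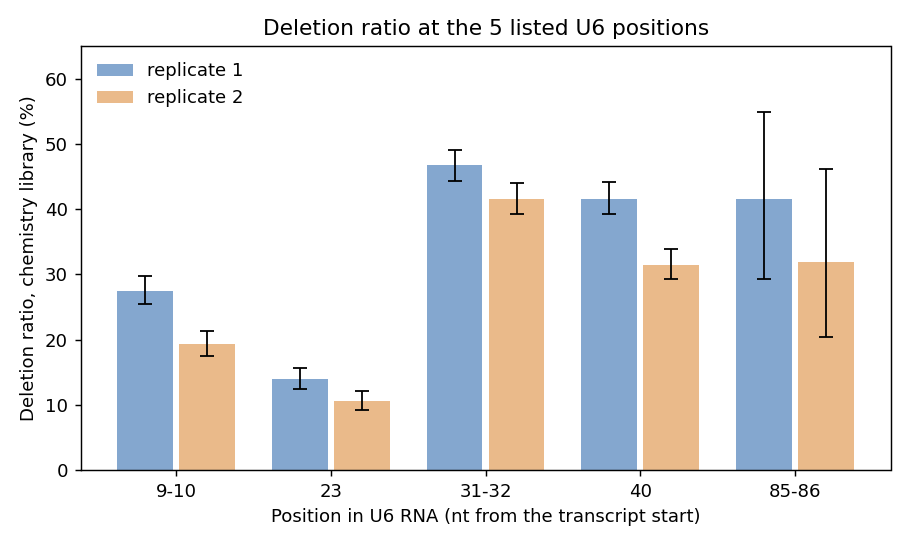
Percentage of chemistry reads with a deletion (y axis) at the 5 listed positions of U6 RNA (x axis), with 1 bar per untreated replicate and Wilson 95% intervals that cover counting error only. Replicate 1 is higher at every position, and the intervals of the replicates are apart at positions 9 to 10 and 40 and wide at positions 85 to 86, where 53 and 47 reads were counted.

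Read depth was lowest near the 3′ end of U6 RNA. Chemistry reads ranged from 1540 to 1742 at the 4 positions up to 40 and were 53 and 47 at positions 85 to 86, which is 3.11% and 2.70% of the deepest position. Control reads varied more over the first 4 positions, with 78.7% and 77.1% of the deepest position at position 40. Those at positions 85 to 86 numbered 723 and 501, or 11.5% and 9.34% of the deepest position. The chemistry library held 0.270 to 0.375 times as many reads as the control at the first 4 positions, but only 0.0733 and 0.0938 times at positions 85 to 86. Over the sites of other genes with at least 20 reads in both libraries, this ratio had a median of 0.479 in replicate 1 (526 sites) and 0.727 in replicate 2 (561 sites). Low ratios were not particular to U6 RNA. In replicates 1 and 2 the ratio was 0.0225 and 0.0670 at positions 40 to 43 of Rnu5g. It was 0.0354 and 0.0664 in Rnu1a1, and 0.0859 and 0.0509 at position 89 of Rnu2-10. At position 18 of Rnu12 it was higher, at 0.708 and 0.750. In bulk tissue, fewer cells of a type and less RNA per cell cannot be told apart, and the table holds no expression levels.

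Background deletion in the control libraries was low throughout U6 RNA, as the listing rules required, but not even. It was 0.253% and 0.262% at positions 9 to 10 (14 of 5532 and 13 of 4957 reads). At positions 31 to 32 it was 0.0159% and 0.0186%, and at position 23 it was 0 of 6191 reads, which allows a share of up to 0.0485% by the limit of 3 counts (Wilson upper bound 0.0620%), and 1 of 5280 reads (0.0189%). The intervals of positions 9 to 10 (0.151% to 0.424% and 0.153% to 0.448%) lay above those of positions 23 and 31 to 32, whose upper bounds were at most 0.107%. Position 40 was between them, at 0.0604% and 0.145%. At positions 85 to 86 the control had 1 deletion in 723 reads and 0 in 501, which allows up to 0.599% by the limit of 3 counts (Wilson upper bound 0.761%). The study's methods state that PCR duplicates were removed, and any copies left would not be independent. These intervals and limits cover counting error only.

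**Figure D2:**
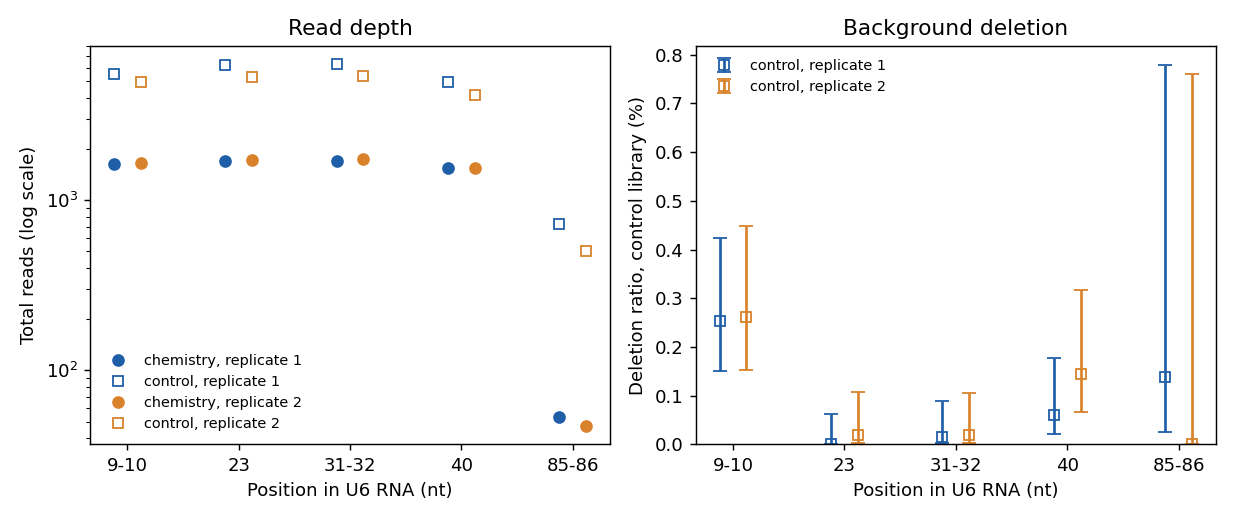
Left, total reads (log scale) of the chemistry (filled circles) and control (open squares) libraries at the 5 U6 positions. Right, percentage of control reads with a deletion, with Wilson 95% intervals. Depth falls at positions 85 to 86 in all 4 libraries, and the control ratio is highest, at 0.253% and 0.262%, at positions 9 to 10, apart from the wide intervals at positions 85 to 86.

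How far the untreated replicates agreed was examined next, since it sets the size of change that a comparison with a treatment could resolve in U6 RNA. Every U6 position had a higher level in replicate 1. Chemistry reads were compared between replicates by Fisher's exact test (two-sided), over the 441 sites that had 20 or more in both, with Benjamini-Hochberg adjustment over all of them. The test called 2 of the 5 positions. Among all 441 sites 2.27% were called, and 1.59% with the higher value in replicate 1. Without adjustment 4 of the 5 positions had a Fisher exact p under 0.05, against 12% of all sites. Most sites were far shallower than U6 RNA. With the test restricted to the 67 sites with at least 1000 chemistry reads in each replicate, 18 sites (26.9%) were called, 15 of them (22.4%) higher in replicate 1, and these included all 4 U6 positions of that depth. The test sets 2 libraries against read sampling alone. The spread among animals was not measured, and the labels do not say whether the replicates came from separate animals.

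Position 40 differed by 10.2 points of level (41.6% in replicate 1 and 31.4% in replicate 2). The deletion ratios alone differed by 10.1 points, with a Newcombe 95% interval of 6.73 to 13.5 (Fisher exact, adjusted p = 8.1e-07). Positions 9 to 10 differed by 8.24 points (27.3% and 19.0%), with an interval of 5.35 to 11.1 (Fisher exact, adjusted p = 2.83e-06). The odds of a deletion were 1.55 times (95% interval 1.33 to 1.80) and 1.59 times (1.35 to 1.88) as high in replicate 1.

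The other 3 positions missed the threshold. At positions 31 to 32 the difference was 5.10 points (interval 1.78 to 8.40, Fisher exact, adjusted p = 0.0865) and at position 23 it was 3.36 points (interval 1.15 to 5.55, Fisher exact, adjusted p = 0.0865). Both intervals excluded 0 before adjustment. At positions 85 to 86 the difference of 9.46 points was nearly as large as at position 40, but the interval ran from -9.20 to 27.3 (Fisher exact, adjusted p = 0.849). A difference of this size was not detectable at 53 and 47 reads. The odds ratios of these 3 positions were 1.23 (interval 1.07 to 1.41), 1.37 (1.11 to 1.69) and 1.51 (0.617 to 3.75). The interval of positions 31 to 32 thus overlapped that of position 40, and the odds ratios of the 5 positions were not tested against each other.

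The control ratios of the replicates differed by at most 0.138 points at any U6 position. By the same Fisher exact test on control reads none of the 5 positions was called, the lowest unadjusted Fisher exact p being 0.316 at position 40, and 0.21% of all 477 sites tested were called. At an unadjusted p under 0.05 these shares were 0 of 5 positions and 2.31% of sites. At positions 9 to 10, where the background was highest, the control ratios differed by -0.0092 points against 8.24 points in level. The total of chemistry reads was also nearly equal between replicates (1540 and 1552 at position 40).

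Differences of this size were uncommon at this depth. At 63 sites of other genes with at least 1000 chemistry reads in each replicate, replicates differed with an SD of 1.44 points, the largest difference being 4.68 points (Gm46178). Without Gm26917, Lars2, Gm46178 and Gm15564, whose reads were uneven between replicates, 36 sites remained, with an SD of 1.53 points and a largest difference of 3.64 points (Snora74a). Positions 9 to 10, 31 to 32 and 40 of U6 RNA exceeded all of these, and 3 of the 63 sites differed by at least as much as position 23. Levels as a whole were not shifted. Of 441 sites, 50.6% were higher in replicate 1, and over the 436 sites of other genes the median difference was 0.0050 points.

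Other named spliceosomal RNAs went in both directions. They had 11 sites in 5 genes, and of the 9 with values in both replicates 4 were higher in replicate 1 and 5 in replicate 2, by at most 5.08 points. U2 RNA (Rnu2-10), the partner of U6 RNA in the active spliceosome, was called in the opposite direction, with levels of 31.98% in replicate 1 and 35.6% in replicate 2 at positions 91 to 92 (Fisher exact, adjusted p = 2.33e-07) and 22.5% and 25.05% at position 89 (Fisher exact, adjusted p = 0.000105). U12 RNA (Rnu12), which takes the place of U2 RNA in the minor spliceosome, reached 88.2% and 83.3% at position 18 without passing the test (adjusted p = 0.381, Fisher exact). U5 RNA (Rnu5g), which holds the exons together, had differences of 3.97, -0.20 and 3.44 points at its 3 sites, and U1 RNA (Rnu1a1), which first recognizes the 5′ splice site, had -5.08 points, none past the test. No gene named Rnu4, for U4 RNA, the partner of U6 RNA before activation, was listed. Genes without a Rnu symbol were also called in the direction of U6 RNA. Rn7sk differed by 1.57 points at position 250 (Fisher exact, adjusted p = 2.81e-09) and Snord3b4 by 1.03 points at position 40 (Fisher exact, adjusted p = 0.0112). Rn7s1 differed by 0.42 points at position 236 (Fisher exact, adjusted p = 0.0496). Gm46178 and Gm22886 were called in this direction too, and Gm26917 at positions 4044 to 4045 in the opposite one.

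**Figure D3:**
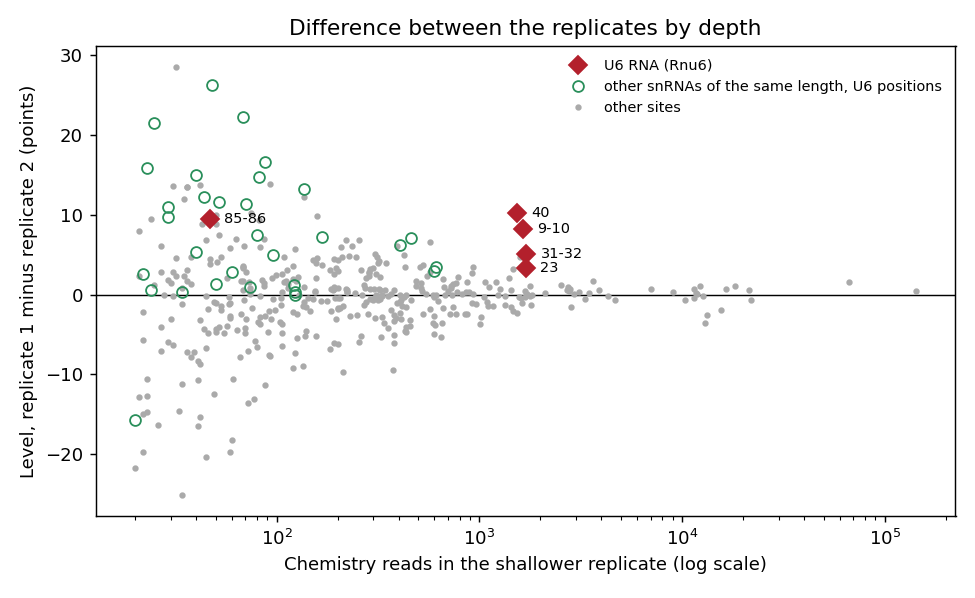
Level in replicate 1 minus level in replicate 2 (y axis, points) against the chemistry reads of the shallower replicate (x axis, log scale) for the 441 sites with at least 20 reads in each. Diamonds are U6 positions, open circles are other snRNAs of the annotated length of U6 at the same positions, and dots are all other sites. The 4 deep U6 positions lie 3.36 to 10.2 points above 0, while 63 other sites with 1000 reads or more lie within 4.68 points of it, the farthest of them hidden behind the diamond of positions 31 to 32.

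Many listed snRNAs shared the U6 positions. The mouse genome holds numerous predicted snRNA genes, and the RefSeq table of the GRCm38.p6 assembly, used here only for gene types and lengths, has 385 snRNA genes of 107 nt among 1004 snRNA genes. In the table of Ψ sites, snRNA genes of this length other than Rnu6 had 59 sites in 49 genes, of which 58 sites (98.3%) lay at exactly one of the 5 U6 positions or runs. For snRNAs of another length this was 5 of 55 sites, for typed genes that are not snRNAs 4 of 516, and for sites with no gene type 4 of 120. This comparison was chosen after the positions were seen, and it uses positions rather than levels. The transcripts were not compared by sequence here, and how reads that match several transcripts were assigned is not given in the sources used here. Values of these genes and of Rnu6 may therefore share reads, and both are uncertain to that extent.

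The 58 sites were spread over 17 chromosomes and over all 5 U6 positions, 9 at positions 9 to 10, 5 at position 23, 20 at positions 31 to 32, 12 at position 40 and 12 at positions 85 to 86. No gene but Rnu6 had all 5, and the most in 1 gene was 3 (Gm25021, at positions 23, 31 to 32 and 40), while 41 genes had 1. The name of the deposited sheet says that one Gm gene was kept, and if near-identical predicted genes were removed, the numbers of genes, and of positions per gene, depend on that step. U6 RNA itself had more chemistry reads than any of them at each position. Against the sum over these genes in replicates 1 and 2, it held 70.6% and 67.9% of the reads at positions 9 to 10, 86.4% and 89.2% at position 23, 41.5% and 38.7% at positions 31 to 32, and 66.7% and 64.3% at position 40. At positions 85 to 86 it held only 17.1% and 13.7%, as 12 genes had up to 46 reads each beside the 53 and 47 of U6 RNA.

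Levels at the shared positions varied widely among these genes. At positions 31 to 32, Gm23412 on chromosome 4, the deepest of them there, had 32.7% and 29.2% over 611 and 763 chemistry reads, and Gm25412 on the X chromosome 30.4% and 27.5% over 595 and 699. U6 RNA had 46.7% and 41.6% there over 1706 and 1742 reads. At position 40, Gm22306 on chromosome 2 had 75.5% and 69.4% over 478 and 408 reads, beside 41.6% and 31.4% in U6 RNA over 1540 and 1552. At positions 9 to 10 Gm24182 on chromosome 1 had 29.3% and 22.1% over 167 and 207 reads, beside 27.3% and 19.0% in U6 RNA over 1638 and 1653. These values stand side by side without a test.

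The depth of a site limited which levels could be listed. In replicate 1 the 20 of these sites under 20 chemistry reads had levels of 35.3% or more, while the 9 sites with at least 100 reads had 6.45% to 75.5%. The listing rule on the p-value shuts out low levels at few reads, so the levels of the shallowest sites have a floor that deep sites such as those of U6 RNA do not have.

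The higher values in replicate 1 recurred at the shared positions. Of the 31 of these sites with at least 20 chemistry reads in each replicate, 29 had a higher level in replicate 1 and 2 in replicate 2, beside 46.7% higher in replicate 1 among the 405 sites that remain without U6 RNA and these genes. The count was 8 of 8 at positions 9 to 10, 9 of 9 at positions 31 to 32, 5 of 5 at position 40, 6 of 7 at positions 85 to 86 and 1 of 2 at position 23. The median difference was 12.7 points at positions 9 to 10, 9.78 points at position 40, 5.28 points at positions 85 to 86 and 3.51 points at positions 31 to 32. These sites are not independent of each other or of U6 RNA where reads are shared, so the counts carry no test. One site passed the replicate test by itself, Gm22886 at positions 9 to 10 with 36.9% and 14.6% (Fisher exact, adjusted p = 0.0464), and the other 30 did not. This call was lost with Bonferroni adjustment, and also without the 4 genes of uneven reads.

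With their reads summed over the genes listed in both replicates, the deletion ratio at positions 9 to 10 was 39.9% in replicate 1 and 26.8% in replicate 2 (9 genes), at positions 31 to 32 it was 31.2% and 26.4% (16 genes), and at position 40 it was 68.9% and 57.5% (11 genes). The summed ratios were 36.6% and 33.1% at positions 85 to 86 (11 genes) and 6.85% and 6.5% at position 23 (2 genes). The differences from positions 9 to 10 to positions 85 to 86 were 13.1, 0.35, 4.76, 11.4 and 3.47 points, beside 8.24, 3.35, 5.10, 10.1 and 9.59 points in U6 RNA. By these values alone, the order of the 5 positions by difference was not the same as in U6 RNA, where positions 85 to 86 came second. That place in U6 RNA rests on 53 and 47 reads, with a Newcombe interval of -9.20 to 27.3 points. The U6 intervals of position 40 (6.73 to 13.5) and of positions 9 to 10 (5.35 to 11.1) also overlapped. At position 23 the summed reads numbered only 146 and 200. Neither order was thus resolved, and the orders were not tested against each other.

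**Figure D4:**
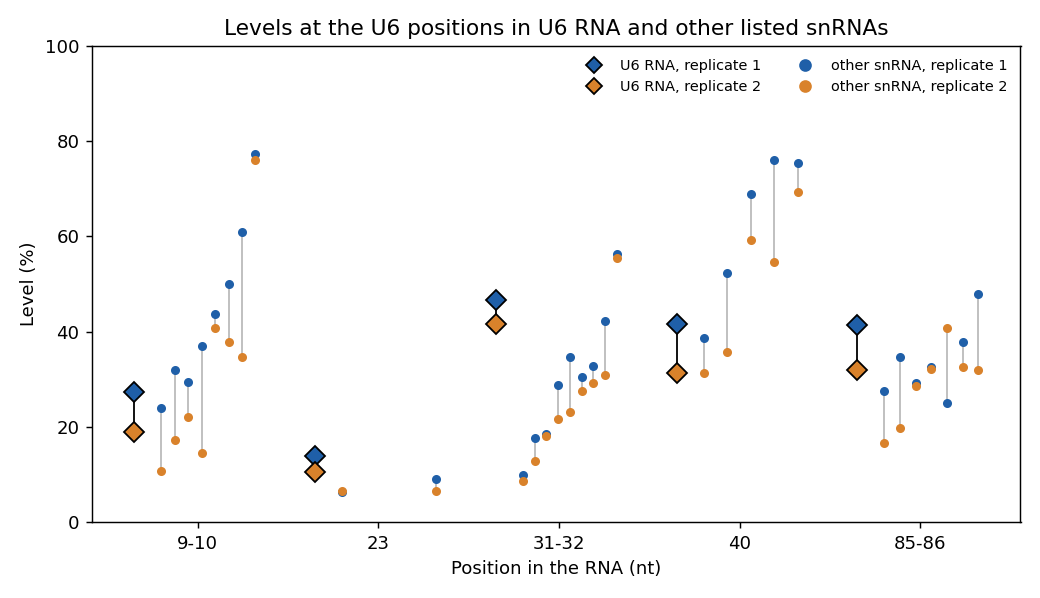
Level (y axis, %) at the 5 U6 positions (x axis) for U6 RNA (diamonds) and for other snRNAs of its annotated length with at least 20 chemistry reads in each replicate (circles, 31 sites, ordered by mean level), with a line joining the replicates of a gene. Replicate 1 is the higher one in U6 RNA at all positions and in 29 of the 31 other sites.

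Proteins that mature or bind U6 RNA gave no site. Of 24 genes on this list, among them the LSm ring that holds the 3′ end of U6 RNA, the recycling factor Sart3 and the N6-methyladenosine enzyme Mettl16, none had a listed Ψ site, and 1 symbol (Cwc2) matched no gene of the RefSeq table. Among all its protein-coding genes, 0.89% (195 of 21900) had one, so that a count of 0 says nothing particular about the list. Read depth over these transcripts was not analysed here. Of 20 genes for Ψ synthases and H/ACA proteins, only Dkc1, the synthase of H/ACA particles, had a site, listed in replicate 2 alone with 6 deletions in 7 chemistry reads. As a check of the tissue, 2 of 12 cochlear marker transcripts had a listed site. These were Otos, which encodes otospiralin of cochlear fibrocytes (11.3% and 10.9% at position 639), and the tectorial membrane gene Otog. Otof itself had none, and a list of Ψ sites cannot show whether the other markers were expressed.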

How the data were processed

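Ψ was mapped by PRAISE in cochlear tissue. According to the study's methods, ribosomal RNA was depleted and the rest fragmented. PolyA RNA is the molecule given in the labels. The submitters' processing notes name cutadapt 4.2, UMI-tools 1.0.0 and GRCm39. The authors removed PCR duplicates, downsampled the reads and mapped them to RefSeq transcripts with PRAISE-tool. The name of the sheet says that one Gm gene was kept, without saying of which. The deposited counts are deletion and total reads per site, without normalization. The deposited fraction columns hold deletion ratios and levels, and equal the counts' ratios within 1e-06 at all 609 and 646 sites of replicates 1 and 2. The deposited p-value is from an unadjusted contingency table test by the authors and was not reused. RESTART v3 samples were not analysed here.

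U6 RNA positions 9 to 10 had become a calendar date and were read back. Python 3.11.15 with NumPy 2.4.6, SciPy 1.17.1, pandas 2.3.3 and Matplotlib 3.10.9 were used. A position was called at 20 reads in both libraries where its level passed 5 points, with a Fisher exact p-value under 0.005 and control deletions under 5%. Replicates were compared by two-sided Fisher exact tests over all sites with at least 20 reads, adjusted by Benjamini-Hochberg at 0.05. The step was run on simulated reads drawn by binomial sampling, which hold no spread between libraries beyond read sampling. Median depth over listed sites was 121 and 137 chemistry reads and 319 and 228 control reads in replicates 1 and 2. Alternatives changed the read minimum, the adjustment, the test, the genes included, the level limit and the control subtraction. All entries of Rnu6, other genes with symbols starting in Rnu and genes listed at the U6 positions were named. Members and lists were chosen with earlier results of these data known, and the snRNAs of 107 nt after the positions were seen. No sequence was used here.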

Additional observations from a re-analysis of the deposited data

How the results depend on the processing

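The level of each U6 position stayed within the SD of its replicates in all 20 settings tried (no control subtraction, summed reads, either replicate alone), although a mean of 2 replicates never lies further than that SD from either one. The median of the 5 levels, 36.5%, was 31.4% and 41.4% in single replicates. All 5 positions were called in both replicates, against 4 at a minimum of 50 or 100 reads and 3 at a level over 20 points. The share of all listed sites called at these changed limits was not computed. Position 40 (adjusted p from 1.23e-07 to 2.43e-06) and positions 9 to 10 (4.31e-07 to 1.13e-05) passed the replicate test (Fisher exact, or normal on subtracted levels) in all 7 alternatives. Positions 23 and 31 to 32 passed in 1 of 7, the minimum of 1000 reads, where fewer sites were adjusted for (Fisher exact, adjusted p = 0.0164 for both), so that 4 U6 positions were then called in place of 2. Otherwise their adjusted p reached up to 1. Positions 85 to 86 passed in none of 5. Over the whole table the 10 calls became 18 of 67 at 1000 reads, 6 with Bonferroni adjustment and 6 without the 4 genes of uneven reads. The single control call of the table became 0 at 1000 reads, where 75 sites were tested. The 29 of 31 shared-position sites higher in replicate 1 became 18 of 19 at 50 reads and 36 of 42 at 10 reads, settings added after seeing the data. No paired analysis was possible because the RESTART v3 samples that share these numbers were not analysed here, so the treatment comparison was not run either. Depth limits positions 85 to 86, and U6 positions outside the list were not analysed here.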

Other observations

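Some snRNAs of nearly the length of U6 RNA were also listed at its positions and were not counted with those of 107 nt. At positions 31 to 32 these were Gm26176 (105 nt, 29.5% in replicate 1 and 22.8% in replicate 2), Gm22829 (106 nt, 11.6% and 11.7%) and Gm24144 (111 nt, 17.9% and 11.97%). Gm25801 (106 nt) was listed at position 23 in replicate 1 alone, with 5.77%. A further entry at position 40, Snord3b4 of 218 nt, typed as snRNA in the RefSeq table, had 9.52% and 8.49%. It passed the replicate test (Fisher exact, adjusted p = 0.0112). The only site of an snRNA of 107 nt off the U6 positions was in Gm22618, at positions 96 to 97, with 20% over 15 chemistry reads of replicate 1. The same gene had levels of 77.4% and 76.0% at positions 9 to 10 and of 56.4% and 55.4% at positions 31 to 32. Its differences of 1.36 and 1.005 points between replicates were smaller than those of U6 RNA at the same positions, with Newcombe 95% intervals of -14.8 to 17.6 and -14.4 to 16.4 points.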
